A study of Sus scrofa with 12 samples.

Results

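UBD, BID, ACP5 and ULBP1 are 4 genes of 31903 in the expression table of back subcutaneous fat and longissimus dorsi (LD) muscle of Dingyuan pigs, and they are described as a group because each acts in immune signalling, in macrophages or in cell death. UBD and BID were taken by their identifiers, and ACP5 and ULBP1 by the identifiers under which the study lists them among its genes for back fat. All 4 were chosen by their difference between high and low backfat in these same fat libraries, so the comparison within the fat is described here without a test. The muscle libraries and the difference between the tissues were not used to choose them, and those comparisons were tested. A gene had to be expressed in the fat to be chosen there, so a lower level in muscle may be in part built in.

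Dingyuan is a native Chinese breed, and the pigs were unmated sows of 300 days. Back fat was compared between a low and a high backfat group (LBF and HBF), and LD muscle between a low and a high intramuscular fat group (LIMF and HIMF), with 3 libraries in each group and 12 in all. No treatment or genetic change was applied to any group: the fat groups were formed by backfat thickness and the muscle groups by intramuscular fat. The sample codes in the labels share numbers between LBF and LIMF and between HBF and HIMF, but no label says that a number marks a sow. Per the study's methods, the tissues were collected from individual sows chosen by live backfat, so the replicates of a group are read as separate animals, while whether a fat and a muscle library share a sow is not given in the sources used here. The study reports unlike mean body weight and backfat for LBF and LIMF, and for HBF and HIMF. The like-coded groups were therefore not made up of all the same sows.

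UBD encodes ubiquitin D, also called FAT10, a small protein that is joined to other proteins and directs them to the proteasome, and interferon gamma and tumour necrosis factor raise it in many cell types. BID encodes a member of the BCL2 family that caspase 8 cleaves when a death receptor is engaged, and the cleaved form acts on mitochondria to release cytochrome c. ACP5 encodes tartrate-resistant acid phosphatase, an enzyme of osteoclasts and of some tissue macrophages. ULBP1 encodes a surface ligand of NKG2D, an activating receptor of natural killer (NK) and T cells. In obese fat, macrophages are known to gather and to take up lipid from dying adipocytes.

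By the RefSeq annotation of Sscrofa11.1, the build to which the authors aligned, the 4 protein-coding genes lie on different chromosomes. UBD (ENSSSCG00000001252) is on chromosome 7 from 22501130 to 22502883, 24 bases from the protein-coding LOC106504234. BID (ENSSSCG00000000769) is on chromosome 5 from 69849007 to 69874647, and the long non-coding LOC110260761 lies inside it, from 69849903 to 69860952. Whether strand was used in counting is not given in the sources used here, so reads of that overlapping gene and of BID may not be told apart. ACP5 (ENSSSCG00000032282) is on chromosome 2 from 70206159 to 70209855, and ULBP1 (ENSSSCG00000026042) is on chromosome 1 from 16113774 to 16119273.

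Levels are given as FPKM, in which the fragments counted for a gene are scaled to transcript length and to the size of the library, so levels of different genes can be set side by side. The libraries held from 420982 to 517796 FPKM in total. The table holds no read counts, so the depth behind a value is not given and no counting interval could be made. Adipocyte markers summed to between 7832 and 13020 FPKM in the fat and to between 97.2 and 204 FPKM in the muscle. Skeletal muscle markers summed to between 6077 and 25740 FPKM in the muscle, although ACTA1, skeletal alpha-actin, was listed at 0 in 4 muscle libraries and CKM, muscle creatine kinase, in 2. In the fat the same markers summed to at most 2.60 FPKM in 5 libraries and to 223 FPKM in LBF replicate 3. That library therefore carried muscle transcripts. Without it, the log2 differences between HBF and LBF were 1.35 for UBD, 1.59 for BID, 2.42 for ACP5 and 1.65 for ULBP1, and those between muscle and fat were -2.09, -4.17, -4.04 and -2.20, which were still called.

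In back fat, BID was the most abundant of the 4 and ULBP1 the least. BID stood above 86.6% of the genes tested in LBF and above 95.6% in HBF. ULBP1 stood above 22.0% in LBF and 33.0% in HBF.

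**Figure D1:**
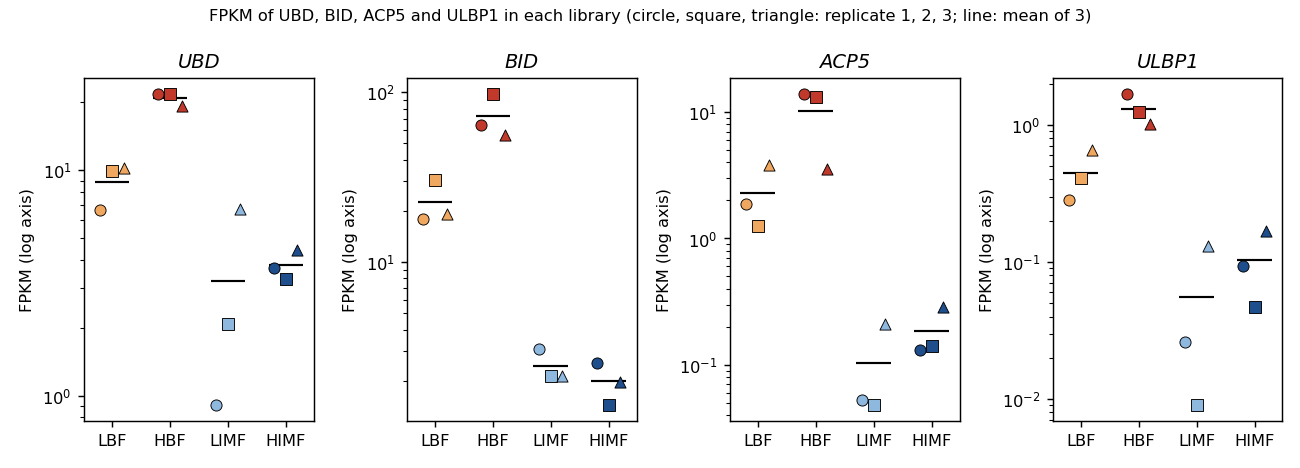
FPKM (log axis) of UBD, BID, ACP5 and ULBP1 in the 12 libraries, by group, with a circle, a square and a triangle for replicates 1, 2 and 3 and a line at the mean of 3 libraries. Every HBF point lies above every LBF point for UBD, BID and ULBP1, while for ACP5 the HBF replicate 3 at 3.56 lies under the LBF replicate 3 at 3.79.

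UBD had an FPKM of 6.63, 9.90 and 10.2 in LBF replicates 1 to 3. In HBF it had 21.7, 21.8 and 19.2. The groups did not overlap, and the HBF libraries lay close to each other. The means were 8.92 ± 1.99 in LBF and 20.9 ± 1.47 in HBF (SD, n = 3), and the log2 difference of FPKM + 0.1 was 1.24 with a standard error of 0.19. This was the smallest log2 difference of the 4 genes, against the limit of 1 that the study set for its list.

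BID had an FPKM of 17.8, 30.5 and 19.2 in LBF and of 63.9, 97.6 and 55.7 in HBF. Replicate 2 was the highest library of both groups, and the lowest HBF library was still above the highest LBF library. The means were 22.5 ± 6.98 and 72.4 ± 22.2 (SD, n = 3), a ratio of 3.22, and the log2 difference was 1.68 with a standard error of 0.28.

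ACP5 had an FPKM of 1.88, 1.25 and 3.79 in LBF and of 13.9, 13.1 and 3.56 in HBF. It was the only one of the 4 whose fat groups overlapped, since HBF replicate 3 lay below LBF replicate 3 and far below the other HBF libraries. The means were 2.31 ± 1.32 and 10.2 ± 5.75 (SD, n = 3). The log2 difference was 2.01, the largest of the 4, and its standard error of 0.60 was the largest as well. Without HBF replicate 3 the log2 difference was 2.64, and without LBF replicate 3 it was 2.42.

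ULBP1 had an FPKM of 0.284, 0.412 and 0.651 in LBF and of 1.68, 1.25 and 1.01 in HBF. No library of one group reached the range of the other. The means were 0.449 ± 0.186 and 1.32 ± 0.342 (SD, n = 3), and the log2 difference was 1.39 with a standard error of 0.33. The pseudocount is not small beside these levels, and with a pseudocount of 1 the log2 difference was 0.67.

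The 3 genes without overlap between HBF and LBF stand beside 13.9% of all 16239 genes tested in the fat, for which every HBF library was above every LBF library. With limma no gene of the fat was called, 0.0% of all tested, where a call means an adjusted p under 0.01 and a log2 difference of 1 or more in either direction. A raw p, before adjustment, under 0.05 was reached by 13.6% of all genes, of which 1520 were higher and 686 lower in HBF. After median-of-ratios scaling these were 974 and 1012 and after quantile normalization 952 and 1063, so the share of all genes higher at that limit, 9.36% as deposited, was 6.0% and 5.86%. Nothing is read from these counts for the 4 genes, since the same contrast chose them.

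The genes around UBD were next described. The list of the FAT10 pathway and the immunoproteasome holds the enzymes that activate and transfer FAT10, its partners, the 3 inducible proteasome subunits and the peptide transporter, and all 12 of its genes were tested in the fat. None was called, and 5 had a raw p under 0.05, all higher in HBF, beside 9.36% of all genes in that direction. The median log2 difference of the list was 0.35, against 0.09 over all genes, and all 12 values were above 0. The most abundant genes were SQSTM1, an autophagy adaptor, with a log2 difference of 0.18, and PSME1, a proteasome activator subunit, with 0.16. PSMB8, an inducible proteasome subunit, had an FPKM of 12.8, 20.5 and 20.4 in LBF and of 28.5, 27.9 and 27.5 in HBF, without overlap. UBA6 and UBE2Z, the enzymes that activate and carry FAT10, differed by 0.20 and 0.25. Median-of-ratios scaling left 4 genes of this list at a raw p under 0.05, and quantile normalization 3, while 2 were left without LBF replicate 1 or without HBF replicate 1, and 3 without LBF replicate 3.

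Of 19 genes of the interferon and TNF response list tested in the fat, 0 had a raw p under 0.05, and the median log2 difference was 0.29 against 0.09 over all genes, with 17 values above 0. The most abundant were NFKBIA, an inhibitor of NF-kappaB, with a log2 difference of 0.19, and ISG15, another ubiquitin-like modifier, with 0.16. ISG15 had an FPKM of 20.9, 36.8 and 41.1 in LBF and of 40.7, 31.6 and 34.5 in HBF, and the groups overlapped. Interferon gamma itself, IFNG, was at most 0.117 FPKM in any library. For IFNG, LBF replicates 1 and 3 were both listed at 0. Counting that tie, LBF replicate 1 was the lowest LBF library for 16 of the 20 genes of this list and also for UBD. Without that library the median of the list was 0.07, against 0.44 without LBF replicate 2 and 0.47 without HBF replicate 3, and UBD had a log2 difference of 1.05. The count of 0 was 3 higher without LBF replicate 2 and 1 higher without LBF replicate 3 or without HBF replicate 2, while median-of-ratios scaling put 1 gene and quantile normalization 2 genes at that limit as lower in HBF.

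For BID, the other genes of the BCL2 family and the caspases were described by their role. Of 10 genes of the BCL2 family tested in the fat, 4 had a raw p under 0.05, all higher in HBF, beside 9.36% of all genes, and 0 were called. The median log2 difference of the family was 0.47 against 0.09 over all genes, and its highest value was 0.93 for BOK. BOK, a relative of the pore-forming effectors, had an FPKM of 15.8, 18.2 and 14.9 in LBF and of 38.3, 37.4 and 20.8 in HBF. BAK1, a pore-forming effector, differed by 0.79. The inhibitors of cell death MCL1 and BCL2L1 were also among the 4, with log2 differences of 0.52 and 0.61, so the family members at a raw p under 0.05 included genes known to promote and genes known to oppose cell death. BCL2L2, the most abundant gene of the family and another inhibitor, had a difference of -0.0042.

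Of 16 genes of death receptors, caspases and the apoptosome, 6 had a raw p under 0.05 in the fat, all higher in HBF, where 9.36% of all genes stood, and 0 were called. The median log2 difference was 0.35, with 0.09 for all genes. CASP8, the protease that cleaves BID, had an FPKM of 5.28, 4.25 and 5.70 in LBF and of 7.30, 6.78 and 7.03 in HBF, without overlap, with a log2 difference of 0.47. The most abundant genes, the TNF receptor TNFRSF1A and the mitochondrial DIABLO, differed by 0.49 and -0.11. APAF1 and CASP9, the parts of the apoptosome that act after mitochondria, differed by -0.03 and -0.20. Without HBF replicate 1 the count of 6 was 1, without LBF replicate 1 or without HBF replicate 3 it was 3, median-of-ratios scaling gave 4 and quantile normalization gave 3.

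ACP5 was set beside the macrophage markers. Of 13 markers tested in the fat, 8 had a raw p under 0.05, all higher in HBF, against the 9.36% of all genes in that direction, and 0 were called. Their median log2 difference was 0.80 against 0.09 over all genes. The most abundant were C1QC and C1QB, chains of the complement component that resident macrophages secrete, with log2 differences of 0.66 and 0.71. CD68, a lysosomal glycoprotein of macrophages, had an FPKM of 6.43, 11.6 and 24.3 in LBF and of 31.0, 37.0 and 21.9 in HBF. CD163, a haemoglobin scavenger receptor, was the one marker with a negative value, -0.32. None of the 13 markers was listed at 0 in any fat library.

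The markers followed single libraries as well as groups. LBF replicate 1 was the lowest LBF library for 13 of the 13 markers, and LBF replicate 3 the highest for 13 of 13. Their sum was 168.8, 258.9 and 442.6 FPKM in LBF and 452.5, 416.5 and 505.7 FPKM in HBF. Of LBF, replicate 3 was highest for ACP5 too, and replicate 2 was lowest. Of HBF, replicate 3 had the highest marker sum, of which the C1Q genes are a large part, and the lowest ACP5, and it was also lowest for CD68 and for the sum of the lysosomal list, which was 3292, 3748 and 2834 FPKM in HBF. Without LBF replicate 1 the median of the markers was 0.52. The count of 8 was 11 without LBF replicate 3, 2 without LBF replicate 1 (with 1 other marker then lower at that limit), 1 without LBF replicate 2, 0 without HBF replicate 1, 4 without HBF replicate 2 and 3 without HBF replicate 3, and it was 5 under either of the scalings named above. In bulk tissue, fewer cells of a type and less RNA per cell cannot be told apart, and the part of macrophage content in the values of the 4 genes was not tested.

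**Figure D2:**
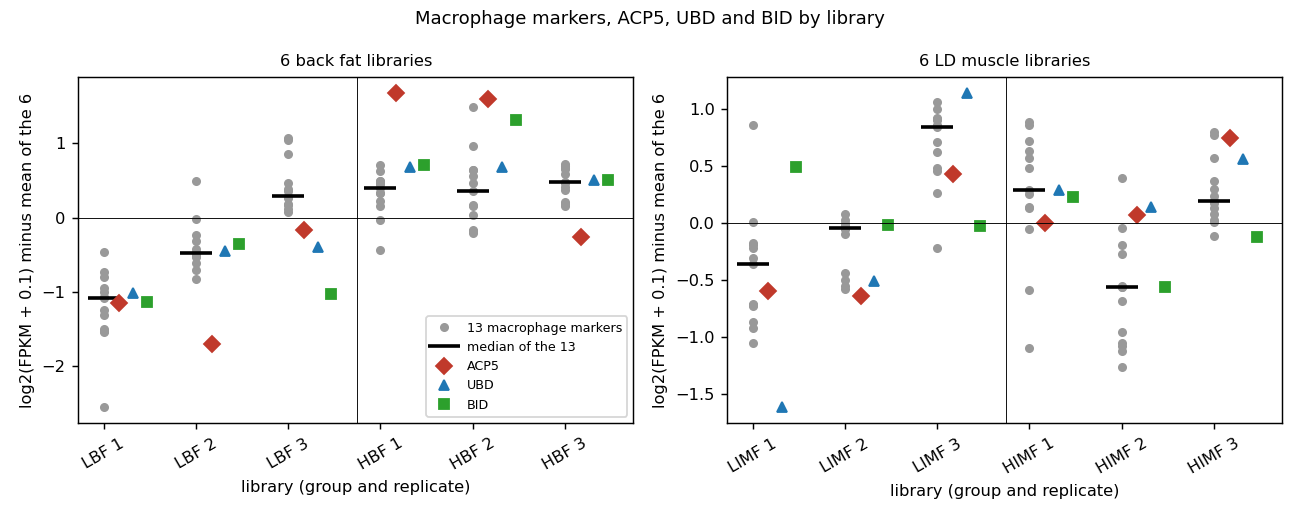
Log2(FPKM + 0.1) of the 13 macrophage markers (grey points, with a bar at their median), ACP5, UBD and BID in each library, minus the mean of each gene over the 6 libraries of the tissue, back fat on the left and LD muscle on the right. In fat the markers are lowest in LBF replicate 1, while in LBF replicate 3 they reach the level of HBF and BID does not. In muscle the median of the markers and UBD are highest in LIMF replicate 3.

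The lysosomal and osteoclast-type genes gave a similar count. Of 19 tested in the fat, 8 had a raw p under 0.05, all higher in HBF (9.36% over all genes), 0 were called, and the median log2 difference was 0.70 (0.09 over all genes). The most abundant were the lysosomal proteases CTSB and CTSD, with log2 differences of 0.80 and 1.29. SPP1, the secreted protein osteopontin of macrophages and osteoclasts, had an FPKM of 6.94, 45.0 and 83.4 in LBF and of 104, 270 and 217 in HBF. CTSL, another lysosomal protease, had 13.7, 6.65 and 15.0 in LBF and 60.4, 24.5 and 49.0 in HBF. ACP2, a lysosomal acid phosphatase of many cell types, differed by 0.03 and lay between 5.11 and 5.95 FPKM in all 6 fat libraries. MMP9, a secreted protease of osteoclasts, differed by -0.36. Without LBF replicate 1 the median was 0.42, and without LBF replicate 3 it was 1.13. The count was 12 without LBF replicate 3, 4 without HBF replicate 2, 5 without LBF replicate 1 or without HBF replicate 1, and 5 with median-of-ratios scaling.

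A list of 15 leukocyte and lysosome genes was taken from the study's supplementary gene tables, partly from these same libraries, and is no independent evidence of direction. In the fat 10 of the 15 had a raw p under 0.05, all higher in HBF, a limit that 9.36% of all genes reached in that direction, with a median log2 difference of 1.17 against 0.09 over all genes and 0 called. Without LBF replicate 1 that median was 0.77, and without HBF replicate 3 it was 1.245. The most abundant were APOE, the lipid carrier apolipoprotein E, with 0.31, and CTSB with 0.80.

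ULBP1 was set beside the NK ligands and receptors. KLRK1, which encodes NKG2D, had an FPKM of 0.542, 0.989 and 1.40 in LBF and of 0.346, 0.579 and 1.31 in HBF, so that the groups overlapped and the log2 difference was -0.43. KLRD1, an NK receptor subunit, was listed above 0 in 1 of the 12 libraries, and a 0 in this table can be a failed estimate, ACTA1 being listed at 0 in muscle too. Of the 6 genes of the NK ligand and receptor list tested in the fat, 1 had a raw p under 0.05, beside 9.36% of all genes higher in HBF at that limit, and nothing is read from that count. The gene was PVR, a ligand of another activating receptor, with 0.792, 1.22 and 0.938 FPKM in LBF and 5.81, 2.42 and 2.68 FPKM in HBF and a log2 difference of 1.70. It was the only ligand of that list matched to a row of the table, and it was also 1 of the genes taken from the study's tables.

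T and NK cell markers summed to 6.38, 14.5 and 28.6 FPKM in LBF and to 24.7, 35.9 and 33.5 FPKM in HBF. Most of that sum was NKG7, a granule membrane protein, with 3.47, 9.03 and 21.7 FPKM in LBF and 21.3, 31.6 and 25.9 FPKM in HBF. It was the 1 gene of 9 tested with a raw p under 0.05, a share near the 9.36% of all genes, so nothing is read from it for the list, and CD3E, part of the T cell receptor complex, differed by 0.26. That count of 1 was 0 when any single fat library other than LBF replicate 3 was left out. Of the 7 adipocyte markers, 1 was higher and 1 lower at a raw p under 0.05, beside 9.36% and 4.22% of all genes in those directions, with a median log2 difference of 0.16 against 0.09 over all genes. The higher was LEP, the adipocyte hormone leptin, with 98.5, 33.9 and 53.5 FPKM in LBF and 114, 109 and 106 FPKM in HBF. The lower was LPL, lipoprotein lipase, with 1120, 977 and 842 FPKM in LBF and 368, 588 and 590 FPKM in HBF. Neither gene's groups overlapped. The count of 1 higher was 0 without LBF replicate 2 or without any 1 of the HBF libraries, and the count of 1 lower was 2 without HBF replicate 1 or under either scaling. The median of the adipocyte markers was 0.07 and -0.06 under the scalings, 0.06 without LBF replicate 1 and -0.03 without HBF replicate 2. Of the 4 B cell markers, 0 had a raw p under 0.05, as did 0 of 4 endothelial and 0 of 5 fibroblast markers. The median log2 difference of the B cell markers had no steady sign, being 0.18 with all libraries, -0.06 without LBF replicate 3 and -0.58 without HBF replicate 2, and those of the endothelial and fibroblast markers were 0.64 and -0.83. Without LBF replicate 2, 3 of the endothelial markers were higher and 4 of the fibroblast markers lower in HBF at that limit, the endothelial median was 0.32 without LBF replicate 3, and the fibroblast median was -0.34 without HBF replicate 2. Both red cell markers, HBB and ALAS2, had a raw p under 0.05 and were lower in HBF, beside 4.22% of all genes in that direction, with log2 differences of -1.73 and -1.25. That count of 2 was 1 without LBF replicate 3 and 0 in 1 fit over all 12 libraries. The median of the 2 red cell markers was -1.49 with all fat libraries and -0.98 without HBF replicate 2.

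The muscle asks whether the same 4 genes differed with the other fat depot, and none was called. Of 14292 genes tested with limma between HIMF and LIMF, 0 were called, 0.0%, and the smallest adjusted p was 0.362. None of the 4 genes had a raw p under 0.05, beside 7.02% of all genes. An exact permutation test of 3 libraries against 3 cannot give a two-sided p under 0.10.

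UBD had an FPKM of 0.905, 2.07 and 6.70 in LIMF and of 3.67, 3.29 and 4.44 in HIMF. The LIMF libraries spanned more than the HIMF libraries and enclosed them. The means were 3.23 ± 3.07 and 3.80 ± 0.587 (SD, n = 3), and the log2 difference was 0.66 with a 95% interval from -0.76 to 2.07 and an adjusted p of 0.862 in limma, with an exact permutation p of 0.5. The value rested on the LIMF libraries. Without LIMF replicate 1 it was 0.01, and without LIMF replicate 3 it was 1.39, with the adjusted p in limma between 0.178 and 0.999 when each library was left out in turn.

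In LIMF replicate 3, where UBD was highest, 12 of the 13 macrophage markers were at their highest of LIMF as well, and their sum was 18.1, 21.3 and 46.9 FPKM in LIMF. Of the 20 genes of the interferon and TNF list, 13 were at their highest of LIMF there, and CXCL10, a chemokine raised by interferon, was 0.156, 0.806 and 3.11 FPKM in the same libraries. LIMF replicate 3 was also the highest of LIMF for 4 of 4 endothelial, 2 of 2 red cell and 9 of 12 FAT10 list genes. It was the highest for 2 of 5 fibroblast, 3 of 16 death receptor and caspase and 0 of 6 skeletal muscle genes. The adipocyte markers were mixed there: 4 of 7 were at their lowest of LIMF, LPL was at its highest, and the sum of the 7 was 153.2, 154.9 and 204.4 FPKM in LIMF. LPL alone was 85.1, 76.3 and 136 FPKM in the same libraries, a large part of that sum.

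BID had an FPKM of 3.08, 2.13 and 2.12 in LIMF and of 2.55, 1.43 and 1.97 in HIMF. The ranges overlapped. The log2 difference was -0.30 with a 95% interval from -0.97 to 0.37, an adjusted p of 0.863 in limma and an exact permutation p of 0.4. It was -0.13 without LIMF replicate 1, -0.10 without HIMF replicate 2 and -0.49 without HIMF replicate 1. Whether this difference is unlike that in the fat was not tested, because the fat values chose the gene.

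ACP5 had an FPKM of 0.0524, 0.0478 and 0.210 in LIMF and of 0.130, 0.141 and 0.285 in HIMF, and the groups overlapped through LIMF replicate 3. The log2 difference was 0.54 with a 95% interval from -0.42 to 1.49 and an adjusted p of 0.831 in limma. ULBP1 had 0.0261, 0.00900 and 0.131 in LIMF and 0.0937, 0.0472 and 0.169 in HIMF, with a log2 difference of 0.42, a 95% interval from -0.53 to 1.38 and an adjusted p of 0.864 in limma. The exact permutation p were 0.3 and 0.4. These differences depend on the pseudocount: with 0.01 they were 0.99 and 1.15, and with 1 they were 0.10 and 0.06, with no call. Leaving out 1 library gave 0.30 (without HIMF replicate 3) to 0.89 (without LIMF replicate 3) for ACP5 and 0.20 to 0.75 for ULBP1 (without the same libraries), and 0.21 for ULBP1 without LIMF replicate 2, again with no call. Both genes were below 0.3 FPKM in every muscle library, and how many fragments lie behind such values is not known.

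**Figure D3:**
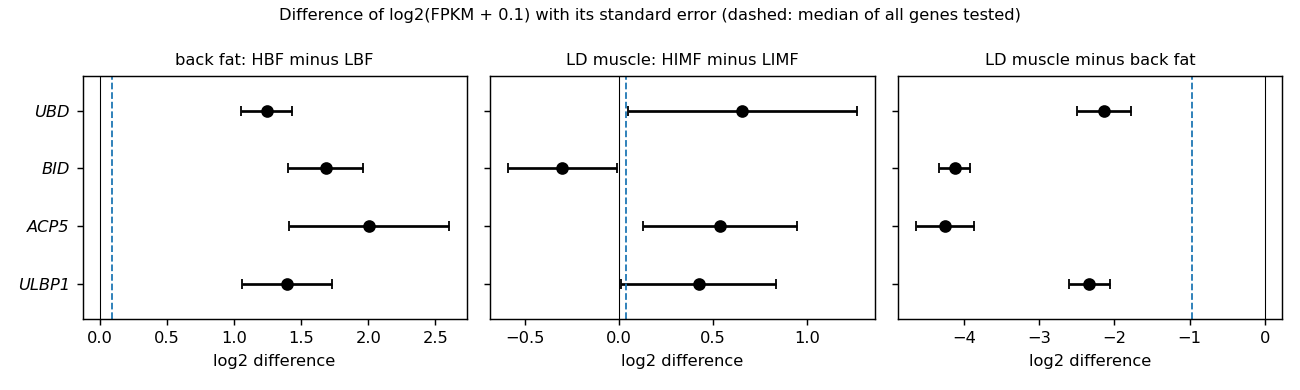
Difference of log2(FPKM + 0.1) with its standard error for UBD, BID, ACP5 and ULBP1 between HBF and LBF, between HIMF and LIMF and between the tissues, with a dashed line at the median of all genes tested (0.09, 0.04 and -0.97). The values in muscle lie between -0.30 and 0.66, and all 4 genes lie left of the dashed line in the contrast of the tissues.

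In the muscle the median log2 difference of all genes was 0.04. The list medians were -0.13 for the FAT10 and immunoproteasome list, -0.04 for the interferon and TNF list, 0.0025 for the BCL2 family, 0.05 for death receptors and caspases, -0.05 for macrophage markers and -0.05 for the lysosomal list, and 0 genes of any of them were called. At a raw p under 0.05 stood 1 gene of these 6 lists, the lysosomal protease CTSD, which was lower in HIMF with a log2 difference of -0.90, a direction with 2.52% of all genes at that limit. CTSD was not at that limit without LIMF replicate 2 or without HIMF replicate 2. The macrophage median was -0.32 without LIMF replicate 1 and 0.29 without LIMF replicate 3. The lysosomal median was -0.20 without HIMF replicate 3 and 0.10 without HIMF replicate 2. Without LIMF replicate 3 the median was -0.10 for death receptors and caspases and -0.0005 for the FAT10 list. For the BCL2 family it was -0.17 without LIMF replicate 1, and for the interferon and TNF list -0.13 without HIMF replicate 1. Of the 7 adipocyte markers, 4 were higher in HIMF at a raw p under 0.05, beside 4.51% of all genes, and LPL was lower. Among the 4 was the lipid droplet protein PLIN1 with 0.975, 1.70 and 0.343 FPKM in LIMF and 4.90, 3.67 and 2.71 FPKM in HIMF. The NK ligand list had 2 genes tested in muscle, the T and NK list 7, the B cell list 2 and the endothelial and fibroblast lists 4 and 5, with 0 at a raw p under 0.05, and so had both red cell markers.

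**Figure D4:**
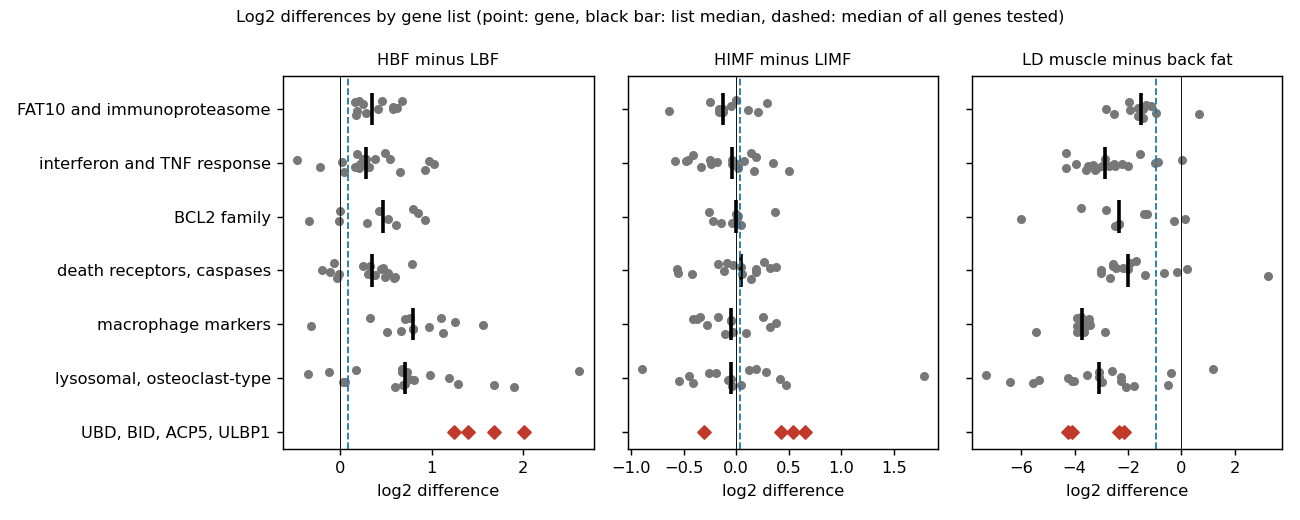
Log2 differences of single genes (points) in 6 gene lists and of UBD, BID, ACP5 and ULBP1 (diamonds) in the 3 comparisons, with a bar at each list median and a dashed line at the median of all genes tested. Between HBF and LBF the list medians lie between 0.29 and 0.80, and the diamonds are the genes chosen by that contrast, while between HIMF and LIMF the list medians lie between -0.13 and 0.05.

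All 4 genes were called lower in LD muscle than in back fat. Across 15965 genes tested, 47.1% were called lower in muscle and 9.29% higher, so the count of 4 of 4 is read against a background in which most calls had that direction. That background is over all genes tested and is not matched to genes expressed in the fat. The fat libraries that chose the 4 genes are also 1 side of this comparison. The median log2 difference of all genes was -0.97 with the FPKM as deposited, -0.15 after median-of-ratios scaling and -0.10 after quantile normalization. For 3 of the 4 genes every muscle library was below every fat library, as for 49.3% of all genes. The share of lower genes among those called was 83.5%, 55.2% and 53.8% in the same order. The values relative to the median of all genes are therefore given beside the fitted ones.

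BID was between 1.43 and 3.08 FPKM in muscle and between 17.8 and 97.6 FPKM in fat, with medians of 2.12 and 43.1. No muscle library came near a fat library. The mean of the fat was 21.4 times that of the muscle, and the log2 difference was -4.12 with a standard error of 0.20 (adjusted p = 5.37e-09 in limma, exact permutation p = 0.0022, the smallest that 924 assignments allow). Relative to the median of all genes it was -3.16, and it was -3.10 and -3.40 under the scalings, in the order above.

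ACP5 was between 0.0478 and 0.285 FPKM in muscle, with a median of 0.135, and between 1.25 and 13.9 FPKM in fat, with a median of 3.67. The ranges were far apart, and the mean of the fat was 43.2 times that of the muscle. The log2 difference was -4.25 with a standard error of 0.39 (adjusted p = 8.48e-07 in limma, exact permutation p = 0.0022) and -3.28 relative to the median of all genes. The muscle levels are close to the pseudocount of 0.1, and the log2 difference was -2.29 with a pseudocount of 1 and -5.02 with 0.01, both still called, while the scalings gave -3.45 and -3.09. The macrophage markers moved beside it: all 13 were called lower in muscle, beside 47.1% of all genes, with a median of -3.73 against -0.97 over all genes, and they summed to 168.8 to 505.7 FPKM in fat and 16.2 to 46.9 FPKM in muscle. The part of macrophage content in the ACP5 value was not tested.

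ULBP1 was between 0.00900 and 0.169 FPKM in muscle, with a median of 0.0705, and between 0.284 and 1.68 FPKM in fat, with a median of 0.831. The lowest fat library was above the highest muscle library. The log2 difference was -2.33 with a standard error of 0.27 (adjusted p = 6.11e-06 in limma, exact permutation p = 0.0022) and -1.37 relative to the median of all genes. With a pseudocount of 1 it was -0.76, under the fold limit, and with 0.01 it was -3.45. It was -1.67 and -1.16 under the scalings, with adjusted p of 0.000164 and 0.00248 in limma.

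UBD was between 0.905 and 6.70 FPKM in muscle, with a median of 3.48, and between 6.63 and 21.8 FPKM in fat, with a median of 14.7. It was the only one of the 4 whose tissues overlapped, since LIMF replicate 3 at 6.70 lay just above LBF replicate 1 at 6.63. The log2 difference was -2.14 with a standard error of 0.36 (adjusted p = 0.000152 in limma, exact permutation p = 0.00433) and -1.18 relative to the median of all genes. Median-of-ratios scaling brought it to -1.12 with an adjusted p of 0.00995 in limma, close to both limits.

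The means of all 4 genes were in the order HBF, LBF and then the muscle groups, which overlapped each other. For BID and ULBP1 the libraries of HBF, of LBF and of muscle did not overlap, while the fat groups of ACP5 overlapped and UBD in LIMF reached LBF. In muscle UBD had the highest mean of the 4, above 56.3% of the genes tested in LIMF and 59.4% in HIMF, and ACP5 and ULBP1 had the lowest. In LIMF replicates 1 and 2 BID was above UBD, so that the order of those means in LIMF rests on replicate 3.

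The pathway genes also differed between the tissues. Of the 12 genes of the FAT10 and immunoproteasome list, 10 were called lower in muscle, beside 47.1% of all genes, with PSMB8 at -2.84, PSMB9 at -2.53, PSME1 at -1.96 and TAP2 at -1.92, and with a list median of -1.53 against -0.97 over all genes. SQSTM1 had a value of 0.67 and did not pass the fold limit. Of 19 interferon and TNF response genes, 17 were called lower, with a median of -2.85, and the largest were those of the cytokine gene IL6 at -4.34 and of GBP1, an interferon-induced GTPase, at -4.33.

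Of the 10 genes of the BCL2 family, 8 were called lower in muscle, where the share over all genes was 47.1%, and the largest differences were those of BOK at -6.00 and of the inhibitor BCL2A1 at -3.77. MCL1 and BAK1 were at -0.28 and 0.15 and were not called, so that BID at -4.12 was second to BOK. Of 15 death receptor, caspase and apoptosome genes, 11 were called lower, among them CASP8 at -3.01 and CASP9 at -3.00. CYCS, which encodes the cytochrome c that BID acts to release, was the 1 gene called higher, at 3.27, with 123 to 225 FPKM in muscle and 14.0 to 17.7 FPKM in fat.

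Of 19 lysosomal and osteoclast-type genes, 16 were called lower in muscle, again beside 47.1% of all genes, with SPP1 at -7.32, GPNMB, a lysosomal glycoprotein, at -6.44 and CTSL at -5.58, and NFATC1, a transcription factor also used by muscle fibres, was called higher at 1.19. Among the macrophage markers the largest was MSR1, a scavenger receptor, at -5.46. Of the study's leukocyte and lysosome genes, 14 of 15 were called lower, and PVR at -0.08 was not. Below that share, 2 of 6 genes were called lower in the NK ligand and receptor list and 1 of 3 in the B cell list, and nothing is read from these small lists. Called lower were 6 of 9 in the T and NK list, in the endothelial list 4 of 4, in the fibroblast list 5 of 5 and among the adipocyte markers 7 of 7, while 0 of 2 red cell markers were called at an adjusted p under 0.01.

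The genes most like each of the 4 over the 12 libraries were found among 10419 named genes by the Pearson correlation of log2(FPKM + 0.1). These correlations share the libraries and the difference between tissues and are a description. UBD was most like MID2 (0.967), PIGX (0.964) and C17orf49 (0.959). BID was most like OLFM3 (0.987), SREBF2 (0.986) and WWC3 (0.985). ACP5 was most like KLHL2 (0.984), FZR1 (0.983) and GJA5 (0.981), and ULBP1 was most like ARHGAP17 (0.981), POLD4 (0.978) and BDKRB2 (0.978). No macrophage marker, caspase or proteasome subunit of the lists was among these 12 genes.

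Over the 6 fat libraries alone, whose difference between HBF and LBF chose the 4 genes, UBD was most like CSK (0.996), SHOC2 (0.994) and ARF6 (0.993), and BID was most like SELP (0.999) and SACM1L (0.992). ACP5 was most like LIG4 (0.992), OSBPL8 (0.991) and ADCY5 (0.991), and ULBP1 was most like PPP5C (0.996), TBC1D10B (0.996) and CANT1 (0.995). SELP encodes P-selectin, an adhesion molecule by which vessels and platelets catch leukocytes, and had a mean of 1.37 FPKM in fat.

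Among the 4 genes themselves, the correlation over the 12 libraries ran from 0.841 for UBD and BID to 0.977 for ACP5 and ULBP1. Over the 6 fat libraries it ran from 0.757 for BID and ACP5 to 0.963 for UBD and ULBP1, where high values are in part built in, since all 4 genes were chosen as higher in HBF than in LBF in those libraries. Over the 6 muscle libraries UBD, ACP5 and ULBP1 had values from 0.785 to 0.951 with each other, and BID had values from -0.531 to -0.152 with the other genes.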

How the data were processed

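RNA of 12 back fat and LD muscle samples was sequenced. Reads were filtered (fastp) and mapped to Sscrofa11.1 (HISAT2) by the authors, who deposited FPKM values from Cufflinks 2.2.1 for each Ensembl gene and library and state no further scaling. The authors' own test on counts was not repeated, and limma 3.58.1 in R 4.3.3 (lmFit, eBayes with trend) was used on log2(FPKM + 0.1), keeping genes whose mean FPKM in the compared libraries exceeded 0.05, with Benjamini-Hochberg adjustment over all genes tested. This scale understates changes of low genes. A call required an adjusted p under 0.01 with a log2 difference of 1 or more in either direction. Fat, muscle and the tissues (4 group means) were fitted separately. Exact permutation tests were two-sided.

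The 31910 rows held 31903 identifiers, of which 7 on 2 rows were summed, and 15054 had a gene name. List genes were matched by name, and only those with a row are counted. Groups came from the sample titles. The genes and lists were chosen with earlier results of these data known. From each list the called genes with the largest difference were named, or the most abundant where fewer than 2 were called, and further list genes named for the fat and muscle comparisons were chosen after their values were seen. For each of the 4 genes the 3 most alike named genes with a mean FPKM above 1 in a tissue were given, except 1 that is not reported here. The fit was tested on simulated data. The alternatives were other pseudocounts, filters, scalings and limits, no trend, 1 fit over 12 libraries, a replicate block, a block of fat and muscle pairs and each library left out.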

Additional observations from a re-analysis of the deposited data

How the results depend on the processing

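Of 254 values recomputed under alternatives for the 4 genes and the 3 counts of called genes, 243 were held as the same. Log2 differences between HBF and LBF had to keep their direction and shift by less than the spread between libraries. The other log2 differences had to keep their direction and their side of the limits. Counts of called genes had only to lie within a fixed ratio of the main count. Of the log2 differences, 0 changed direction. In the fat 0 genes were called in every setting but those that left out a library, which gave 0 to 2 (2 without LBF replicate 1, and 1 each without LBF replicate 2, LBF replicate 3 or HBF replicate 2). In the muscle 1 fit over all 12 libraries gave 1 gene, and leaving out a library gave 0 to 5 (5 without LIMF replicate 1, and 1 each without LIMF replicate 3 or HIMF replicate 1). Between the tissues 9009 genes were called, and a pseudocount of 1 gave 5864. The same pseudocount brought ULBP1 to 0.67 between HBF and LBF and to -0.76 between the tissues (adjusted p = 7.81e-06 in limma). Leaving out a library gave log2 differences in the fat of 1.05 to 1.35 for UBD, 1.45 to 1.92 for BID, 1.66 to 2.64 for ACP5 and 1.16 to 1.65 for ULBP1. The ACP5 and ULBP1 levels in muscle did not pass a mean FPKM above 1, so that setting gives no muscle value for them, and it gives no value of ULBP1 in the other comparisons.

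The replicate number as a block changed no call of the 4 genes and gave 9000 called genes between the tissues and 0 within each tissue. The correlation of deviations of same-numbered libraries ran from 0.00685 to 0.127 between LBF and HBF and from -0.0732 to 0.0452 between LIMF and HIMF, and a library was most like its own number in 9 of 24 comparisons, so the numbers were not taken to pair the libraries. Between LBF and LIMF, whose label codes share numbers, the correlation ran from 0.0557 to 0.244 for the same number. For other numbers it ran from -0.169 to 0.0553, below every same-number value. Between HBF and HIMF it ran from -0.0543 to -0.0383 for the same number and from -0.063 to 0.11 for other numbers. Each HBF library was most like a HIMF library of another number. Fitting the 6 same-number fat and muscle pairs as a block was an alternative chosen after seeing the data. It gave 8990 called genes between the tissues and left all 4 genes called (adjusted p from 1.55e-06 to 0.000112 in limma). The block by number put 11 macrophage, 2 endothelial and 3 fibroblast markers at a raw p under 0.05 in the fat. Two-sided exact tests of 3 against 3 cannot pass 0.05. Depth was not used.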
